A study of Mus musculus with 6 samples.

Results

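The genes described here were 10 genes measured in the mouse uterus, grouped as AP-1 subunit genes and rapidly induced genes. The AP-1 subunit genes were Fos, Fosb, Fosl2, Jun, Junb and Jund. The others were the transcription factor genes Atf3 and Egr1, the growth-factor-induced gene Ier2, and Socs3, an inhibitor of cytokine signalling. All 10 were taken by symbol from the deposited table, where each stood on 1 row, and made up 10 of 26018 listed genes. All 10 passed the filter on low reads, which 16314 genes passed. The tested animals were Tcf21d/d females, the conditional knockout (cKO) of the transcription factor gene Tcf21, and the controls were Tcf21f/f females, which carry floxed copies without deletion. Both groups were 6 weeks old, matched for body weight and untreated, with 3 animals and 1 library each from uterine tissue. The sources used here name neither the Cre driver nor the deleted part of Tcf21. The comparison addressed possible targets of TCF21 in development of the uterus.

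AP-1 is a dimer of a JUN-family protein with a FOS-family, ATF-family or further JUN-family protein, bound through basic leucine zippers, and it switches genes on or off after growth factors, cytokines, stretch or injury. Several of its subunit genes, among them Fos and Junb, are immediate-early genes like Egr1 and Ier2. Transcription factors already present in the cell, such as serum response factor and CREB, start these within minutes and without new protein synthesis. Jund is an exception, as its subunit is present in resting cells. Socs3 is switched on by STAT3 below the gp130 family of cytokine receptors, and its protein then blocks the receptor and its JAK kinase. In the uterus this cytokine pathway is known from implantation, and the immediate-early genes are known to answer to estrogen and to stretch of the uterine wall.

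Junb and Socs3 rose in cKO uteri, to 1.90 and 1.95 times the control mean, and none of the 10 genes fell (limma, Benjamini-Hochberg adjusted p under 0.05 over all genes tested). By that rule 0.276% of all tested genes were called higher and 0.889% lower. The remaining genes did not follow as 1 block. Fos, Egr1, Atf3 and Ier2 had higher means in cKO uteri without passing, while Jun, Jund and Fosl2 had slightly lower means and Fosb a slightly higher one. No 2 of the 10 genes ranked the 6 libraries in the same order. As 6 libraries can be ranked in very many orders, this says little on whether the genes moved together.

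The DNA just upstream is shown for the 3 genes whose groups did not overlap (Fos, Junb and Socs3) and, beside them, for Jun, the gene with the lowest log2 fold change of the 10. Each sequence is from RefSeq on GRCm38.p6 and runs 5′ to 3′ on the gene's own strand towards the RefSeq start. The windows were chr12:85473640-85473889 for Fos on the plus strand, and chr8:84978749-84978998 for Junb, chr11:117969452-117969616 for Socs3 and chr4:95052223-95052472 for Jun on the minus strand. For Socs3 the bases nearest to the RefSeq start are left out, because part of them is exon of a longer transcript, and its stretch runs from position -250 to -86. Capitals mark matches to 6 motifs searched on both strands, none of which overlapped another in these genes.
Fos: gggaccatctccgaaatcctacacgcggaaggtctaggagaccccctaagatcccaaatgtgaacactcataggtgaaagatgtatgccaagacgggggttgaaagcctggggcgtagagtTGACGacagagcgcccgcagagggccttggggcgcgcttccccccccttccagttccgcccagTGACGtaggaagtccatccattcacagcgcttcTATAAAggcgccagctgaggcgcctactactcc
Junb: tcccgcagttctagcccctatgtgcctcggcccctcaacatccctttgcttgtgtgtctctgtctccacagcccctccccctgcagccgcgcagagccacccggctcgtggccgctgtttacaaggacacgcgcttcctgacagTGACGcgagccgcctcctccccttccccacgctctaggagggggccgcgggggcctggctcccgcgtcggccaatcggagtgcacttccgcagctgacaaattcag
Socs3: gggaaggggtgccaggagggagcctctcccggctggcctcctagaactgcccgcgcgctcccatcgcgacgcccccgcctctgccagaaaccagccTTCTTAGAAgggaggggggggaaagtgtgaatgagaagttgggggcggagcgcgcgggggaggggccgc
Jun: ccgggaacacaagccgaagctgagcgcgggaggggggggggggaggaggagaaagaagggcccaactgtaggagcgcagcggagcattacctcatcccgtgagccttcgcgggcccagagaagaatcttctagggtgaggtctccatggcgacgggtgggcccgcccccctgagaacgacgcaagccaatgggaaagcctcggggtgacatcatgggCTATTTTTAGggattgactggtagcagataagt

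The Fos window held the cAMP response half-site TGACG at positions -129 and -66 and the TATA box TATAAA at -33, counted back from -1 beside the start. Junb held TGACG at -106. Socs3 held a STAT-type palindrome, TTCNNNGAA, at -154, and Jun held a MEF2 box at -33. Windows of 250 bases were used for 8 of the 10 genes. Member windows on chromosome 18, which carries Egr1, were left out of the search, and none was used for Ier2. The counts below therefore do not cover Egr1 and Ier2. TGACG stood in 4 of the 8 windows (Fos, Fosb, Junb and Atf3), against 17.8% of 32851 upstream windows of all genes, and the Atf3 match at -7 lay in exon. TTCNNNGAA stood in 1 of 8 against 7.02% of all windows, TATAAA in 1 of 8 against 12.4%, the MEF2 box in 2 of 8 against 2.92%, the AP-1 site TGANTCA in 0 of 8 against 6.75% and the CArG box in 0 of 8 against 1.47%. The RefSeq start lay 681 bases inside the deposited Socs3 interval, 671 inside that of Fosl2 and 34706 inside that of Atf3, and 1210 bases before that of Jund. Exon of the same gene covered all 250 bases of the Fosl2 window, 77 of Socs3, 7 of Atf3 and 6 of Fosb. These letters are a description of the windows and show no binding. A count of 0 covers only these windows and this exact spelling, so it does not show that a gene lacks such sites. The Jun window, for example, held tgacatca, which TGANTCA does not match. Bases farther upstream than 250 were not searched.

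The libraries held 14584450 to 16579573 reads on genes, and values below are read counts that the authors normalised by 1 size factor per library. The targeted gene Tcf21 was at 26.0 normalised reads in cKO replicate 1 and at 0 in cKO replicates 2 and 3, against 341, 152 and 144 in control replicates 1 to 3. Its log2 fold change was -6.03 (SE 1.25), which did not pass in limma (adjusted p = 0.0765). A gene without a call can therefore still differ. The reads of a whole organ mix its cell types, so fewer cells of a type and less RNA per cell cannot be told apart. Skeletal muscle markers (13 genes) took 6.19, 9.13 and 8.62% of normalised counts in cKO replicates 1 to 3, against 3.05, 5.99 and 4.27% in control replicates 1 to 3. Smooth muscle markers (10 genes) took 0.495 to 0.669% in cKO and 1.21 to 1.71% in control libraries. Most of the cKO sum was Des, with 60821, 92182 and 75687 of 76292, 104407 and 88019 normalised reads in cKO replicates 1 to 3. Des had a log2 fold change of 0.06 and was not called, while limma called the other 9 lower. The summed shares therefore understate the fall of these 9. Myh11, for example, averaged 1400 in cKO and 32446 in control uteri. Control replicate 1 stood apart with 1.44% of its counts on 11 liver markers, against at most 0.0104% in any other library, and with 23.8% of its reads on mitochondrially encoded genes, against 8.10 to 13.7% elsewhere. Control replicate 2 had the largest share on 8 intestinal epithelium markers, at 0.0133% against 0.00261 to 0.00515% in the other libraries. Of 10 uterine stroma and mesenchyme markers, 4 had a higher and 6 a lower cKO mean on the log2 scale. Limma called 0 of them and DESeq2 called 5 lower, with 1 higher and 4 lower at an unadjusted p under 0.05. Their summed share was 0.751 to 1.09% in cKO and 0.604 to 0.994% in control libraries. Of 10 uterine epithelium markers 8 were tested, 1 higher and 7 lower in cKO, with 0 called by limma, 2 lower at an unadjusted p under 0.05 and 2 called lower by DESeq2. Their share was 0.00515 to 0.00978% in cKO libraries and 0.0527, 0.0174 and 0.00652% in control replicates 1 to 3. The untested pair was Wnt7a, at 1.86, 0 and 0 normalised reads in cKO replicates 1 to 3 and 75.6, 0 and 0 in control replicates 1 to 3, and Foxa2, at 0 in all cKO libraries and 89.0, 3.59 and 0 in control replicates 1 to 3.

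Junb encodes a JUN-family subunit that can replace JUN in AP-1 and is known to restrain its growth-promoting activity. It lies on chromosome 8 at 84974484 to 84978718 (GRCm38, minus strand). Junb had 2838, 2835 and 2542 normalised reads in cKO replicates 1 to 3, against 1338, 1327 and 1666 in control replicates 1 to 3. The lowest cKO library was far above the highest control. The means were 2738 ± 170 in cKO and 1444 ± 193 in control uteri (SD, n = 3 each), which is 0.93 log2 units with an SE of 0.16 and a Benjamini-Hochberg adjusted p of 0.0318 in limma. With scaling by library total the adjusted p in limma was 0.101. In the authors' deposited table the log2 fold change was 0.92 and the adjusted p 0.000271. Exons of Prdx2 on the opposite strand cover 7.52% of the Junb exons, and no source says whether reads were counted by strand, so reads of the pair cannot be told apart there. Prdx2 itself had 3652 to 3781 normalised reads in cKO and 2899 to 3599 in control libraries.

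Socs3 (chromosome 11, 117966079 to 117970047, minus strand) had 1640.05, 1712 and 1849.6 normalised reads in cKO replicates 1 to 3, against 1078, 790.0 and 794 in control replicates 1 to 3. Again all cKO libraries lay above all controls, and control replicate 1 was the highest control. The means were 1734 ± 106 in cKO and 887 ± 165 in control uteri (SD, n = 3 each). The difference of 0.98 log2 units (SE 0.17) passed in limma at an adjusted p of 0.0349, and the authors' deposited table gives 0.97 and an adjusted p of 0.000557. Both calls were lost when any cKO library was left out: without cKO replicate 1, 2 or 3 the limma adjusted p was 0.133, 0.182 or 0.163 for Junb and 0.116, 0.178 or 0.222 for Socs3. Without control replicate 2 it was 0.0601 for Junb and 0.0642 for Socs3, and without control replicate 3 it was 0.0226 and 0.0557. Over all 18 alternatives the log2 fold changes ran from 0.87 to 1.04 for Junb and from 0.90 to 1.13 for Socs3. Without control replicate 1, the library with liver transcripts, both passed in limma, at adjusted p values of 0.0283 for Junb and 0.00574 for Socs3.

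**Figure D1:**
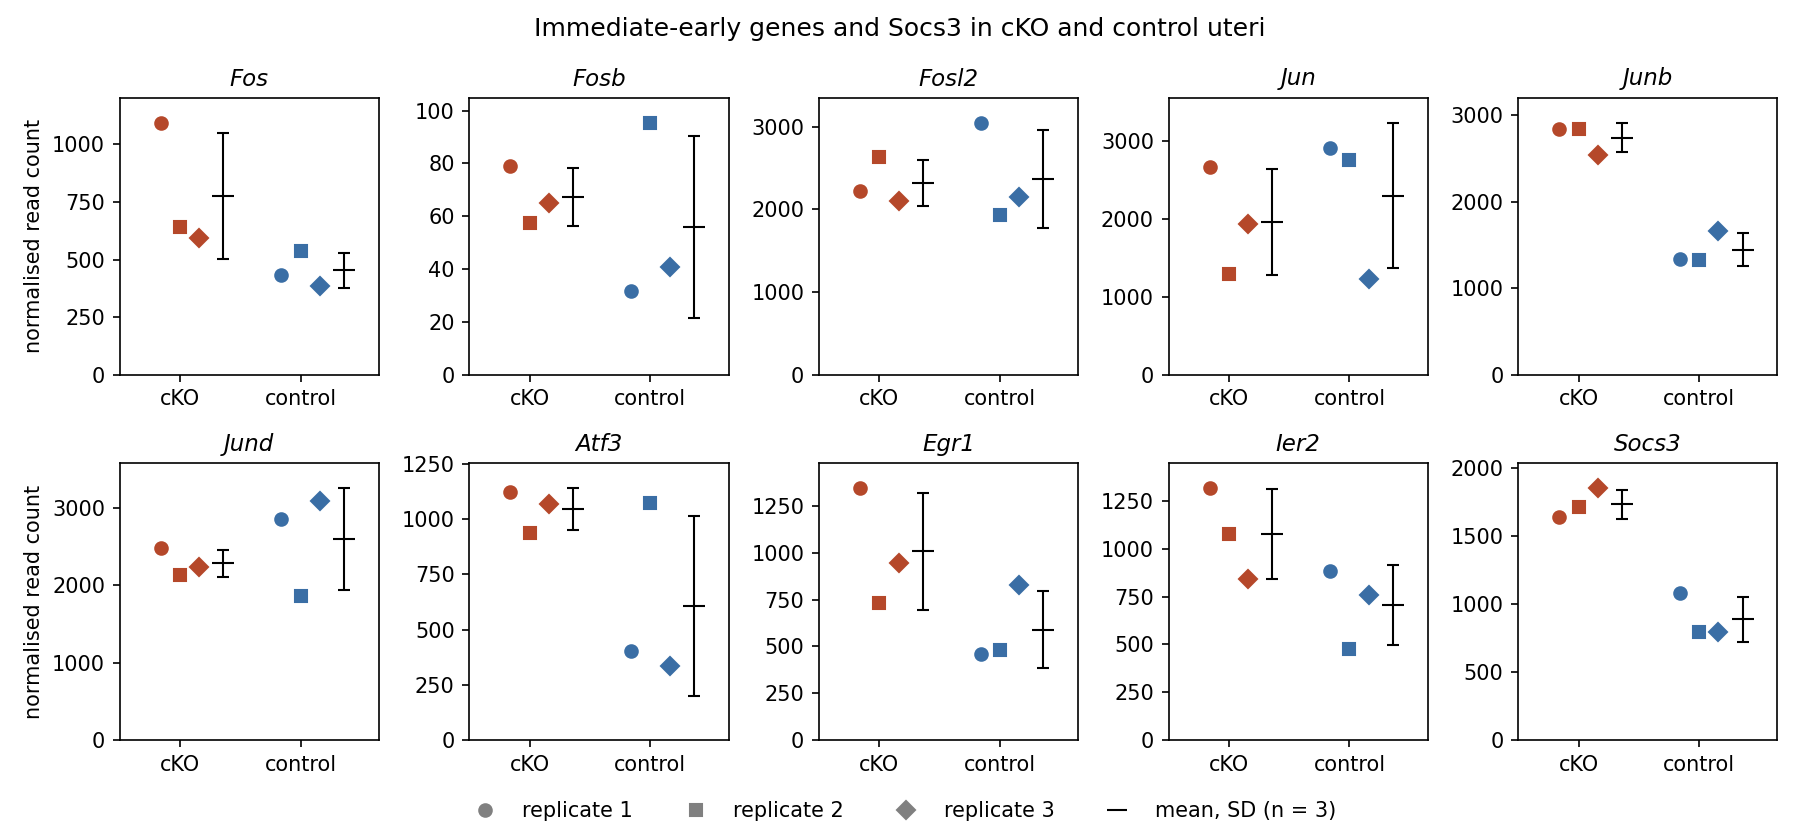
Normalised read counts (vertical axes, starting at 0) of the 10 genes in cKO libraries (red, left) and control libraries (blue, right). Symbols mark the replicate, and bars the mean and SD of 3 libraries. In Junb, Socs3 and Fos every red point lies above every blue point, while in the other 7 genes the groups overlap.

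Fos, Fosb and Fosl2 encode the FOS-family subunits, which cannot pair with themselves and need a JUN partner. Fos (chromosome 12, 85473890 to 85477273, plus strand) had 1093, 641 and 595.6 normalised reads in cKO replicates 1 to 3, against 434, 538 and 386 in control replicates 1 to 3. The groups did not overlap, but cKO replicate 1 stood well above the other two cKO libraries. On the log2 scale the difference was 0.73 (SE 0.25, 95% confidence interval 0.17 to 1.30), which did not pass in limma (adjusted p = 0.235). Without cKO replicate 1 the log2 fold change was 0.46. Fos, Junb and Socs3 were the 3 of 10 genes whose cKO libraries all lay above the controls, a separation in that direction that 9.04% of tested genes showed.

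Fosb (chromosome 7, 19302696 to 19310051, minus strand) was the scarcest of the 10, at 79.0, 57.5 and 65.2 normalised reads in cKO replicates 1 to 3, against 31.7, 95.3 and 40.9 in control replicates 1 to 3. Control replicate 2 was the highest of all 6 libraries and control replicate 1 the lowest. Its log2 fold change of 0.41 had a 95% confidence interval from -0.63 to 1.45. Fosl2 (chromosome 5, 32135801 to 32157842, plus strand), which encodes FRA2, had 2223, 2627 and 2098 normalised reads in cKO replicates 1 to 3, against 3041, 1925 and 2145 in control replicates 1 to 3. The controls lay on both sides of the cKO libraries, with control replicate 1 the highest and control replicate 2 the lowest of the 6. The log2 fold change was -0.01 with an interval from -0.47 to 0.44, an interval that does not reach the Junb estimate.

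Jun (chromosome 4, 95049034 to 95052222, minus strand) encodes the subunit that gives the strongest AP-1 activity with FOS. Jun had 2658, 1294 and 1927 normalised reads in cKO replicates 1 to 3, against 2907, 2753 and 1221 in control replicates 1 to 3. The highest library exceeded the lowest 2.05-fold within cKO and 2.38-fold within control uteri. The log2 difference was -0.19 (SE 0.39, 95% confidence interval -1.09 to 0.72), and it changed sign when cKO replicate 2 or control replicate 1 was left out (0.08 and 0.03). The antisense gene Junos, at 47.5 to 66.3 normalised reads in cKO and 48.5 to 85.3 in control libraries, covers 7.28% of the Jun exon.

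Jund (chromosome 8, 70698949 to 70700616, plus strand) encodes the JUN-family subunit that is present in resting cells. It had 2478, 2132 and 2235 normalised reads in cKO replicates 1 to 3, against 2855.5, 1854 and 3083 in control replicates 1 to 3. The cKO libraries lay between the lowest and the highest control. The log2 fold change was -0.16 with an interval from -0.63 to 0.32. Exons of the gene Gm11175 on the opposite strand cover 52.6% of the single Jund exon, so without strand its reads cannot be told apart from reads of that gene.

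Atf3, Egr1 and Ier2 had higher cKO means, but in each of them the groups overlapped by 1 library. Atf3 (chromosome 1, 191170296 to 191218039, minus strand) encodes a stress-induced bZIP factor that pairs with JUN proteins and often represses. Its normalised reads were 1124, 939 and 1071 in cKO replicates 1 to 3, against 405, 1075 and 337 in control replicates 1 to 3. Control replicate 2 was as high as the cKO libraries and the other controls were far below. The log2 difference of 0.98 (SE 0.40) did not pass in limma (adjusted p = 0.349). Without control replicate 2 it was 1.49 and passed (limma adjusted p = 0.0122). Macrophage markers (9 genes) took 0.262% of counts in control replicate 2, against 0.115 and 0.127% in control replicates 1 and 3 and 0.243 to 0.293% in cKO libraries, and the part of these cells in the Atf3 values was not tested.

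Egr1 (chromosome 18, 34859823 to 34864984, plus strand), a zinc finger factor induced through serum response factor, had 1344, 731 and 946 normalised reads in cKO replicates 1 to 3, against 459.7, 479 and 826 in control replicates 1 to 3. Control replicate 3 exceeded cKO replicate 2. Ier2 (chromosome 8, 84661331 to 84662852, minus strand), a small nuclear protein gene, had 1317, 1076 and 842 normalised reads in cKO replicates 1 to 3, against 886, 475 and 761 in control replicates 1 to 3. Here control replicate 1 exceeded cKO replicate 3. Neither passed in limma: the log2 difference was 0.78 (SE 0.29, adjusted p = 0.272) for Egr1 and 0.63 (SE 0.26, adjusted p = 0.323) for Ier2. Without control replicate 2 the log2 fold change of Ier2 was 0.37.

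**Figure D2:**
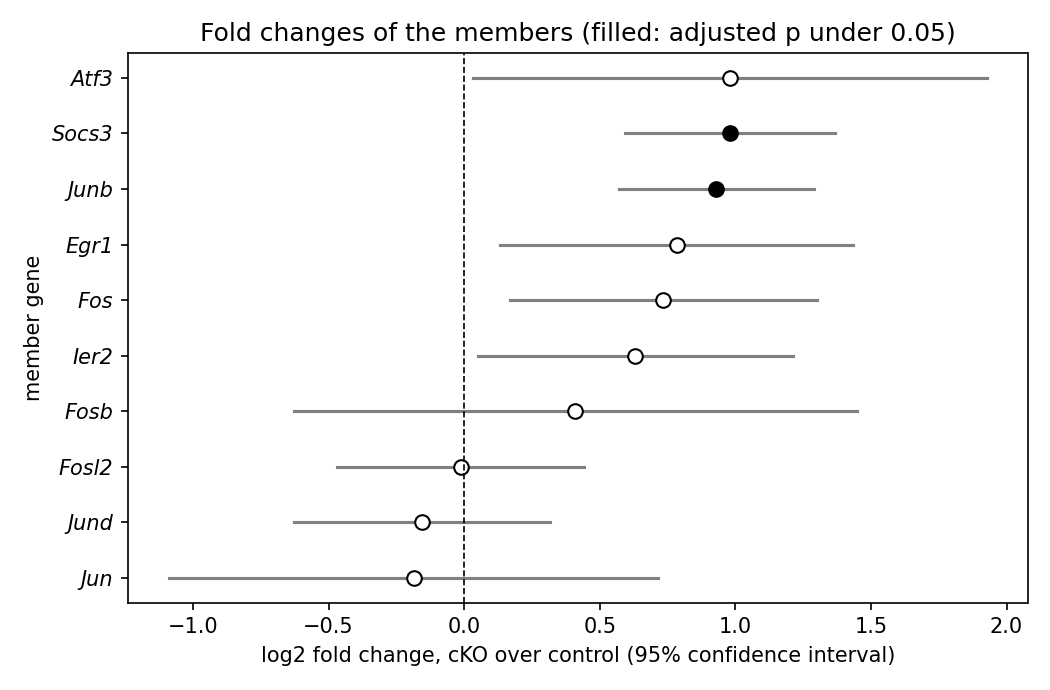
Log2 fold change of cKO over control (horizontal axis) for each of the 10 genes, with the 95% confidence interval of the limma fit as a bar. Filled points passed the adjusted p threshold of 0.05 and are Junb and Socs3. The intervals of Fosb, Fosl2, Jund and Jun include 0.

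An unadjusted p under 0.05 with a higher cKO mean was found for 6 of the 10 genes, against 6.11% of all tested genes, and with a lower mean for 0 of 10, against 7.6%. A log2 fold change above 0 was found for 7 of 10, against 50.3% of all tested genes. The median log2 fold change of the 10 was 0.68, and that of all tested genes was 0.0020. Because the 10 genes were chosen with earlier results of these data known, these contrasts with all tested genes describe the choice and test nothing. The edgeR and DESeq2 tests on recovered reads each called 2 of the 10 as higher and 0 as lower. Over all genes edgeR called 0.19% higher and 0.736% lower, and DESeq2 1.87% higher and 3.83% lower. With limma-voom, which called 0.0613% of all genes higher and 0.374% lower, 0 of the 10 passed. None of the 10 had all cKO libraries below the controls, which 10.5% of tested genes did.

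Within libraries the genes moved together only in part. Each gene's log2 value was set against its own mean over the 6 libraries. As that mean covers both groups, a gene higher in cKO uteri tends to lie above it in every cKO library. The average deviation of the 10 in cKO replicate 1 was 0.48 log2 units. In that library 9 of 10 genes lay above their own mean, against 51.0% of tested genes. Fosl2 was the exception at -0.06, and Fos was highest at 0.92. Of the 10 genes, 5 had their highest value in that library (Fos, Junb, Egr1, Atf3 and Ier2), where 11.9% of tested genes had theirs. For Junb this was by a margin of 2838 against 2835 in cKO replicate 2.

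The other cKO libraries were less uniform. In cKO replicate 2 the deviations ran from -0.63 for Jun to 0.52 for Junb, and in cKO replicate 3 from -0.14 for Fosl2 to 0.58 for Socs3. In each, 6 of 10 genes lay above their own mean, against 50.5% and 50.7% of tested genes in cKO replicates 2 and 3. Compared directly, cKO replicate 1 exceeded cKO replicate 2 in 8 genes and cKO replicate 3 in 9, where 50.5% and 49.8% of tested genes did so. Socs3 was the gene with its order turned round, lowest in cKO replicate 1 and highest in cKO replicate 3.

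Of the 10 genes, 5 had their lowest value in control replicate 2 (Fosl2, Junb, Jund, Ier2 and Socs3), where 19.1% of tested genes had theirs, and none in a cKO library. Control replicate 1 exceeded control replicate 2 in 6 genes and fell below it in 4, and control replicate 2 exceeded control replicate 3 in 4 and fell below it in 6. The deviations spanned -0.87 for Atf3 to 0.54 for Jun in control replicate 1, -0.84 for Ier2 to 0.71 for Fosb in control replicate 2, and -1.13 for Atf3 to 0.36 for Jund in control replicate 3. The average deviations were -0.23, -0.17 and -0.36 in control replicates 1 to 3, against 0.48, 0.12 and 0.17 in cKO replicates 1 to 3. Fosb and Atf3 were both high in control replicate 2 and low in control replicates 1 and 3.

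**Figure D3:**
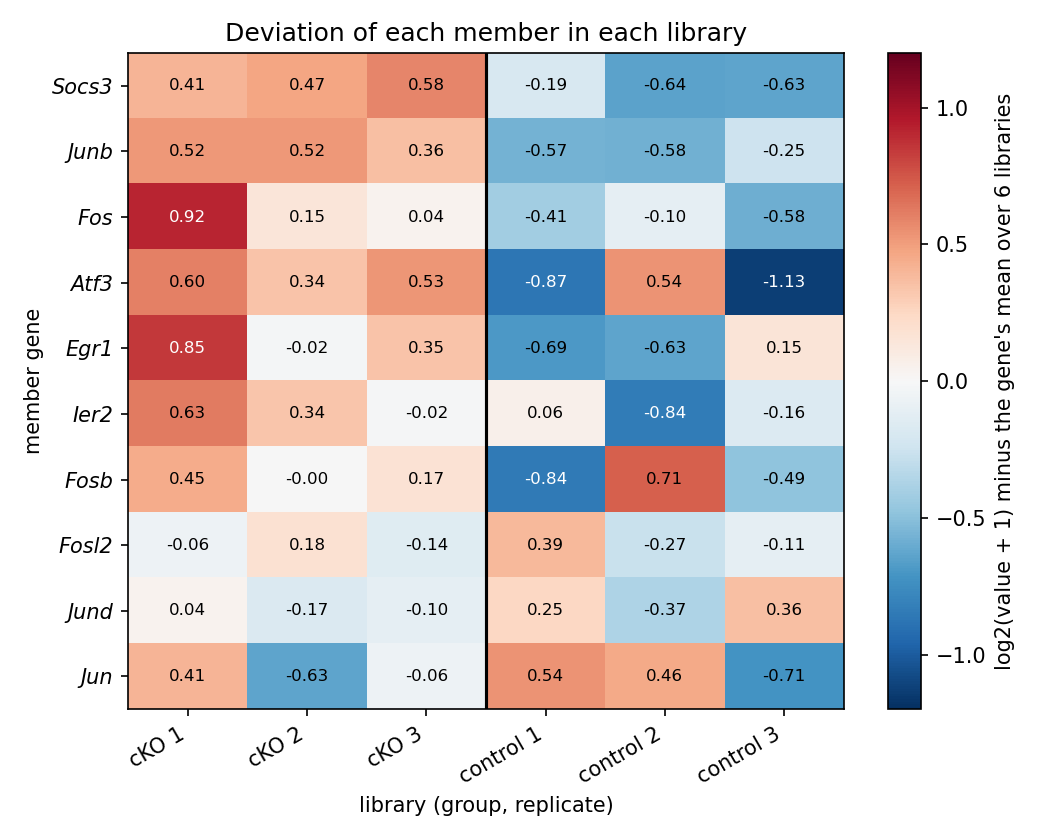
Deviation of each gene (rows) in each library (columns, 3 cKO left of 3 control) from its own mean over the 6 libraries, on the log2(value + 1) scale. Red is above and blue below the gene's mean. The column of cKO replicate 1 is red in 9 of 10 rows, and the control columns mix red and blue.

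The 10 genes also differed in how much they varied between animals of 1 group. The pooled within-group SD was 0.62 log2 units for Jun and 0.64 for Atf3, larger than for 95.5% and 95.6% of tested genes within a factor of 2 of their mean level. For Fos, Egr1 and Ier2 it was 0.38, 0.46 and 0.40, larger than for 81.2%, 89.6% and 86.5% of such genes. Junb and Socs3 varied least, at 0.15 and 0.19, and 21.7% and 39.0% of genes of like level had a smaller SD. Jund, Fosl2 and Fosb lay between, with 69.1%, 64.7% and 56.9%.

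Per kilobase of exon, Jund had the highest level, at 1368 ± 107 normalised reads per kilobase in cKO and 1557 ± 392 in control uteri (SD, n = 3 each). Junb followed in cKO uteri at 1190.05 ± 73.7, against 627 ± 83.8 in control uteri, where its range of levels overlapped that of Jun (719 ± 292). Ier2, Jun and Socs3 had cKO levels of 708 ± 156, 615 ± 214 and 599.8 ± 37, which did not differ beyond their spread, and control levels of 465 ± 139, 719 ± 292 and 307 ± 57. Atf3 stood at 485 ± 44 in cKO and 281 ± 189 in control uteri, and Fos at 330.1 ± 117 and 193 ± 33. Fosl2 (239 ± 29) and Egr1 (225 ± 69) had overlapping levels in cKO uteri. In control uteri Fosl2 (245 ± 61, range 199 to 314) lay above Egr1 (131 ± 46, range 103 to 184). Fosb was lowest at 10.8 ± 1.7 in cKO and 8.96 ± 5.5 in control uteri.

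Junb also took a larger share of its family, a description without a test. Of the level per kilobase summed over Jun, Junb and Jund, Junb made up 34.7, 42.3 and 36.2% in cKO replicates 1 to 3, against 18.1, 22.6 and 24.5% in control replicates 1 to 3. All cKO shares lay above all control shares. Whether the Jund part of the sum includes reads from its opposite strand is not known, because counting by strand is not stated. The FOS family summed to 0.158 to 0.199 of the JUN family per kilobase in cKO and 0.133 to 0.174 in control libraries, ranges that overlapped. Fos made up 49.3 to 65.7% of the FOS-family level in cKO and 36.6 to 51.7% in control libraries.

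Among 13451 other protein-coding genes averaging 1 CPM or more, those whose profile lay nearest to the mean profile of the 10 were Usp13, Lpin1, Il2rb, Sh3bgrl3, Cdca2, Coq5, Acsl1 and Tbx1. The root mean square difference over 6 libraries was 0.052 log2 units for Usp13 and 0.095 for Tbx1, the last of these 8. The members themselves lay from 0.22 for Fos to 0.54 for Jun from the mean profile of the 10. The 8 genes were picked for the smallest difference, so a comparison with them does not measure how closely the members moved together. Usp13, a ubiquitin protease gene, had 2113, 1701 and 1715 normalised reads in cKO replicates 1 to 3, against 1220.5, 1426 and 1229 in control replicates 1 to 3. None of the 8 passed in limma, with adjusted p values from 0.195 for Usp13 to 0.672 for Cdca2.

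Of 48 other rapidly induced genes tested, 0 rose, 1 fell and 47 did not pass. Their median log2 difference was 0.14, an unadjusted p under 0.05 was found for 8 higher and 1 lower, and DESeq2 called 3 higher and 2 lower. All cKO libraries lay above the controls in 9 of the 48 and below in 2, against 9.04% and 10.5% of all tested genes. The gene that fell was Npas4, a transcription factor gene known for its induction by activity in neurons. Npas4 had 38.1, 24.4 and 19.9 normalised reads in cKO replicates 1 to 3, against 188, 196 and 255 in control replicates 1 to 3. The groups were far apart, at a log2 difference of -2.95 (SE 0.36, limma adjusted p = 0.00645), and the call held with each of the 6 libraries left out in turn. Autonomic and enteric neuron markers (10 genes) took 0.0041 to 0.00518% of counts in cKO libraries and 0.00363, 0.0087 and 0.0498% in control replicates 1 to 3. Of the 8 markers tested 2 fell: Snap25 was at 0 in all cKO libraries, against 19.5, 98.0 and 693 normalised reads in control replicates 1 to 3, and Syt1 was at 8.36, 2.93 and 0, against 90.2, 98.0 and 559. Like Npas4, Snap25 and Syt1 were lower in every cKO library than in any control, but they varied far more between the controls. The other 6 tested markers were not called by limma, and edgeR called 0 of the 8. Control replicate 1 had a smaller neuron marker share than any cKO library. Uchl1, Stmn2 and Ret held 152, 178 and 166 of its 645 summed marker reads (normalised). Npas4, Snap25 and Syt1 were each higher in control replicate 1 than in all cKO libraries. The part of neurons in the fall of Npas4 was not tested.

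Klf10, Sik1 and Cyr61 were the other rapidly induced genes with the smallest p values. Klf10, an inhibitor of cell growth induced by TGF-beta, averaged 1209 ± 113 in cKO and 757 ± 56 in control uteri (SD, n = 3 each; limma adjusted p = 0.0829). The kinase gene Sik1 averaged 843 ± 139 in cKO and 466 ± 93 in control uteri (limma adjusted p = 0.0936). Cyr61, a matrix protein gene also called Ccn1, averaged 2486 ± 213 in cKO and 1696 ± 182 in control uteri (limma adjusted p = 0.162). In each of these genes the groups did not overlap. Klf10 passed without control replicate 1 (limma adjusted p = 0.0495) and Sik1 without control replicate 3 (limma adjusted p = 0.0489).

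Among the AP-1 relatives outside the 10 genes, limma and DESeq2 each called 0 of 14 tested and 0 reached an unadjusted p under 0.05, with a median log2 fold change of 0.04. Atf2, Batf3 and Atf7 were among those with the smallest p values. Atf2 averaged 408 ± 32 in cKO and 492 ± 29 in control uteri, and its cKO libraries all lay below the controls.

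Regulators upstream of these genes showed no call by limma. For 24 tested genes of serum response factor, its partners, CREB and the MAP kinases, 0 were called by limma and by DESeq2, 1 had an unadjusted p under 0.05, and the median log2 fold change was -0.07. Srf, the serum response factor gene itself, was at 629, 606 and 677 normalised reads in cKO replicates 1 to 3, against 574, 1180.0 and 973 in control replicates 1 to 3. Without control replicate 1 the log2 difference was -0.75 and passed (limma adjusted p = 0.0482), against -0.45 over all libraries, and without control replicate 2 it was -0.23. Map2k1, an ERK-activating kinase gene, averaged 781 ± 83 in cKO and 1122 ± 269.9 in control uteri (limma adjusted p = 0.302). Mkl1 and Braf had adjusted p values of 0.413 and 0.507.

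In the gp130, JAK and STAT pathway, limma called 0 of 30 tested genes, 8 had an unadjusted p under 0.05 (5 higher and 3 lower), and DESeq2 called 3 higher and 1 lower. The median log2 fold change was -0.06. Separation of all cKO libraries above the controls was found in 8 of the 30 and below in 3, against 9.04% and 10.5% of all tested genes. The cytokine gene Il6 was scarce, at 28.8, 64.4 and 47.5 normalised reads in cKO replicates 1 to 3, against 4.88, 5.39 and 14.2 in control replicates 1 to 3. These groups did not overlap, and the limma adjusted p was 0.128. Osmr, the oncostatin M receptor gene, averaged 1580.0 ± 194 in cKO and 1000.4 ± 196 in control uteri (adjusted p = 0.153). Cish, a SOCS-family gene induced by STAT5, averaged 61.8 ± 4.9 in cKO and 140.3 ± 16 in control uteri (adjusted p = 0.104). The phosphatase gene Ptpn6 averaged 627 ± 67 in cKO and 385 ± 47 in control uteri (adjusted p = 0.112).

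Genes known to respond to STAT3, other than those above, had 1 rise, 0 falls and 14 without a call among 15 tested. Their median log2 difference was 0.39, an unadjusted p under 0.05 was found for 5 higher and 1 lower, and DESeq2 called 3 higher. All cKO libraries lay above the controls in 5 of the 15 and below in 1, against 9.04% and 10.5% of all tested genes. Bcl6, a transcriptional repressor gene, was the one that rose. It had 1814, 1695 and 1678 normalised reads in cKO replicates 1 to 3, against 769, 796 and 856 in control replicates 1 to 3, with no overlap. The log2 difference was 1.099 (SE 0.14, limma adjusted p = 0.00895), and without cKO replicate 1, 2 or 3 the adjusted p was 0.0616, 0.0661 or 0.0833. Bcl3, an IkB-family gene, averaged 931 ± 208 in cKO and 379.95 ± 122 in control uteri (adjusted p = 0.0605), and it passed without control replicate 1 (adjusted p = 0.0192). Timp1 averaged 1673 ± 141 in cKO and 1018 ± 269.6 in control uteri (adjusted p = 0.153). Pim1, a kinase gene, averaged 1084 ± 126 in cKO and 752 ± 106 in control uteri (adjusted p = 0.204).

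Of 15 genes known to respond to AP-1, which share Timp1 with the list before, limma called 0, 4 had an unadjusted p under 0.05, all higher, and DESeq2 called 3 higher. Their median log2 fold change was 0.40. Separation of all cKO libraries above the controls was found in 3 of the 15 and below in 0, against 9.04% and 10.5% of all tested genes. Vegfa, the vascular growth factor gene, averaged 3934 ± 519 in cKO and 2386 ± 201.2 in control uteri (limma adjusted p = 0.0883) without overlap. Spp1, the osteopontin gene, averaged 6722 ± 2821 in cKO and 2804 ± 1435 in control uteri (adjusted p = 0.215), and Hmox1, the heme oxygenase gene, averaged 979 ± 306 in cKO and 618 ± 151 in control uteri (adjusted p = 0.293).

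Heat shock and tissue handling genes, which are often induced together with immediate-early genes when tissue is processed, had no call by limma in 14 tested genes, 3 with an unadjusted p under 0.05, all lower, and a median log2 fold change of 0.03. DESeq2 called 2 lower. Separation of all cKO libraries above the controls was found in 0 of the 14 and below in 3, against 9.04% and 10.5% of all tested genes. Dnaja1 averaged 1508 ± 34 in cKO and 2800.3 ± 742 in control uteri (limma adjusted p = 0.106), and passed without control replicate 3 (adjusted p = 0.0205). Hsp90aa1 averaged 1572 ± 64 in cKO and 2459 ± 223 in control uteri (adjusted p = 0.0888). The inducible genes Hspa1b and Hspa1a averaged 256 ± 49 and 174 ± 45 in cKO and 424 ± 75 and 232 ± 53 in control uteri. The sources used here do not say how long the tissue was handled, and the part of tissue handling in the values of the 10 genes was not tested.

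**Figure D4:**
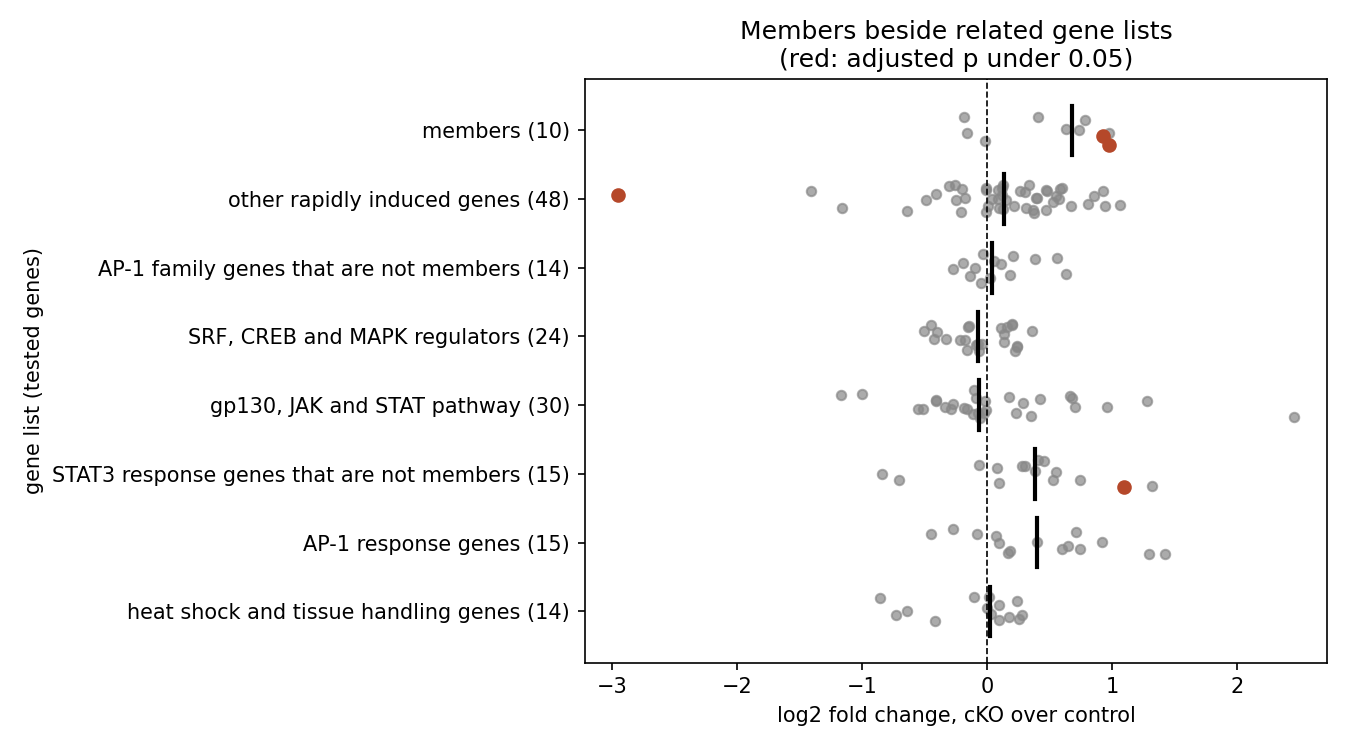
Log2 fold changes of cKO over control (horizontal axis) for the 10 genes (top row, named members) and for 7 lists of related genes. Each point is 1 tested gene, red where the adjusted p was under 0.05, and the vertical bar is the list's median. Junb, Socs3, Bcl6 and Npas4 are the 4 red points.

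Markers of other cells that differed between the libraries were read beside these results. The 9 macrophage markers were higher in the cKO mean in 8 cases and called in none by limma (6 with an unadjusted p under 0.05; DESeq2 called 5), and their summed level of 37951 to 47229.7 normalised reads in cKO libraries touched the 17796 to 38248 of control libraries. Of 9 neutrophil markers, 4 were tested, limma called 0 and DESeq2 called 1, with 1 at an unadjusted p under 0.05, and the summed level was 1189.7 to 2535 in cKO and 923 to 1325 in control libraries. All 12 tested skeletal muscle markers were higher in the cKO mean, with 0 calls by limma, 10 with an unadjusted p under 0.05 and 6 calls by DESeq2. Of 10 smooth muscle markers 9 fell. The part of these cell types in the values of Junb and Socs3 was not tested.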

How the data were processed

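Whole-uterus RNA from 3 cKO and 3 control mice was sequenced as 1 library per animal. Per the submitters' processing notes, HISAT2, SAMtools and featureCounts were used, without versions, with the build given as GRCm39. Of 25988 gene identifiers found in GENCODE vM21 (GRCm38), 25239 had identical coordinates, all 10 members among them, so coordinates are read as GRCm38.

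The deposited signal values fit gene counts that were scaled by a single size factor per library, as the values themselves show. Dividing by the step worth 1 read gave whole reads for 100% of values of every library, within 0.01 reads, and whether reads were counted by strand is not stated. The deposited log2 fold changes and p-values (with adjusted p-values) are the authors' comparison, whose tool the sources used here do not name.

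The main test was limma 3.58.1 (R 4.3.3) on log2(value + 1), with trend and robust empirical Bayes, after edgeR 4.0.16 filterByExpr on the recovered reads, Benjamini-Hochberg adjusted over 16314 genes at 0.05. The design foresaw this test for normalised values. Fold changes on that scale understate the change of low genes. edgeR and DESeq2 1.42.0 on recovered reads, limma-voom, other scalings, filters and pseudocounts, a replicate block and leaving out each library were alternatives. Tests were tried on simulated reads.

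The members and lists were chosen with earlier results of these data known. The genes named are the 10 members, up to 4 genes with the smallest p of each list, and the 8 nearest profiles. One gene that this rule names is not reported here. In the lists, 4 symbols were matched through RefSeq synonyms. All 24 symbols that a spreadsheet had turned into dates were restored by identifier. Opposite-strand exons were taken from GENCODE, and blastn 2.17.0 searched other genes' transcripts for stretches of 100 bases or more at 95% identity, which found only the opposite-strand partners of Jun, Junb and Jund.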

Additional observations from a re-analysis of the deposited data

How the results depend on the processing

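Over all genes, 45 were higher and 145 lower in cKO uteri. The higher genes numbered 12 with scaling by library total, 82 with no filter on low values, 285 with DESeq2 and 10 with limma-voom, and the lower genes numbered 584 with DESeq2 and 61 with limma-voom. Leaving out 1 library gave 1 to 117 higher and 42 to 347 lower genes. Of the 10 members, 2 were higher: scaling by library total called 1 (Junb lost its call, adjusted p = 0.101), and limma-voom called 0 (adjusted p of 0.0591 for Junb and 0.0604 for Socs3). Leaving out 1 library called 0 to 2 members; without control replicate 2 the one called was Atf3. Replicate numbers were shared between the groups, but same-numbered libraries did not deviate together (correlations of 0.0084, -0.18 and 0.044), so the numbers are only names; with a replicate block 34 genes were higher, 149 were lower and 0 members were called (adjusted p of 0.0588 for Junb and 0.0569 for Socs3). No member changed direction under the 12 alternatives that keep all libraries. Leaving out 1 library gave log2 fold changes from -0.15 to 0.18 for Fosl2 and from -0.59 to 0.08 for Jun. The sign turned for Fosl2 without cKO replicate 1 (0.015), cKO replicate 3 (0.056) or control replicate 1 (0.18), and for Jun without cKO replicate 2 (0.082) or control replicate 1 (0.035). By the members' average deviation, control replicates 1 and 3 changed places with scaling by library total (-0.43 and -0.20). At 14584450 reads or more per library, Fosb, the scarcest member, had 26 to 106 reads, so counting error weighs most on its values. The cause of these differences was not tested.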
